A study of Homo sapiens with 4 samples.

Results

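The alpha-arrestins examined here are ARRDC1, ARRDC2, ARRDC3, ARRDC4 and TXNIP, measured in KGN cells, a human cell line derived from a granulosa cell tumour of the ovary. All 5 genes were on the array with 1 probe set each, among 17687 genes named by probe sets of exactly 1 gene. They were chosen by family membership after their levels and differences over the 4 groups had been seen, so every value of theirs is a description with no test. The 4 groups were siYT+8Br-cAMP, siYT, siNC+8Br-cAMP and siNC. siYT is a pair of siRNAs against YAP and TAZ, the Hippo pathway coactivators, at 5 nM each, and siNC is a control siRNA at 10 nM. After 48 h the medium was changed for one with 0.5 mM 8Br-cAMP, a cell-permeable cyclic AMP analogue, or without it, and RNA was taken 24 h later. Every group is 1 Clariom S Human array of 1 cell line, so no difference could be set against a spread between replicates, and every culture, siNC included, had been transfected.

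Alpha-arrestins are cytoplasmic adaptors built on the same fold as the beta-arrestins that switch off hormone receptors. Most carry short proline-rich motifs that bind the WW domains of NEDD4 family ubiquitin ligases, which they bring to membrane proteins that are then removed from the cell surface. WW domains are also the protein-binding modules of YAP and TAZ. TXNIP, the best known of the family, binds thioredoxin and lowers glucose uptake, and its gene is a target of MondoA (encoded by MLXIP) with its partner MLX, which sense glucose phosphates. Granulosa cells receive the gonadotropin signal as cyclic AMP.

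Values are deposited log2 signals, differences are log2 differences between 2 arrays, and folds are computed from these units. A call of higher or lower needed a difference of 1 or more (2-fold) and, on the higher of the arrays compared, a level of 6.22 or more, the median over all genes and arrays. YAP1 was at 6.29 in siYT+8Br-cAMP against 9.46 in siNC+8Br-cAMP, and at 6.80 in siYT against 9.48 in siNC. WWTR1, which encodes TAZ, was at 5.35 in siYT+8Br-cAMP against 9.13 in siNC+8Br-cAMP, and at 5.45 in siYT against 7.58 in siNC. All 6 measured cyclic AMP responsive genes were called higher with 8Br-cAMP after both siRNAs, as were 1.58% of all genes, PDE4D for example by 4.02 after siYT and 3.97 after siNC. Of 10 granulosa markers, 7 reached 6.22 in siYT+8Br-cAMP and 6 in siYT, against 5 in siNC+8Br-cAMP and 4 in siNC; KRT18, above it on every array, was called lower after siYT by 4.71 with and 4.02 without 8Br-cAMP, and KRT8 differed by -0.31 and -0.79; FOXL2, INHA and AMHR2 lay below it on all 4 arrays, and STAR and CYP19A1 are also among the cyclic AMP responsive genes. Of the granulosa markers counted after siYT, FSHR was at 6.63 in siYT+8Br-cAMP and 6.31 in siYT, and NR5A1 at 6.35 in siYT+8Br-cAMP. These values lay under the 95th percentile of the negative control probe sets, 6.98 in siYT+8Br-cAMP and 7.29 in siYT. Of 10 markers of other cell types, CD68 and ACTA2 alone reached 6.22, on every array. The sum of the 10 log2 values was 53.2 in siYT+8Br-cAMP and 54.8 in siYT, against 51.0 in siNC+8Br-cAMP and 52.5 in siNC. CD68 was higher after siYT by 2.82 with and 1.92 without 8Br-cAMP, ACTA2 was lower with 8Br-cAMP by 1.90 after siYT and 1.59 after siNC, and their part in the results below was not tested. In bulk RNA, a change in cell number of a type and a change in RNA per cell cannot be told apart.

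ARRDC3 differed most, and it was high on every array but that of siNC cells without 8Br-cAMP. It was at 12.80 in siYT+8Br-cAMP and 11.97 in siYT, against 12.88 in siNC+8Br-cAMP and 9.06 in siNC. ARRDC3 is an adaptor that brings NEDD4 family ligases to receptors, the beta2-adrenergic receptor among them. Its 3 high values spanned less than 1 log2 unit and siNC stood apart below them, but without replicates the order of the 3 has no measure of error.

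**Figure D1:**
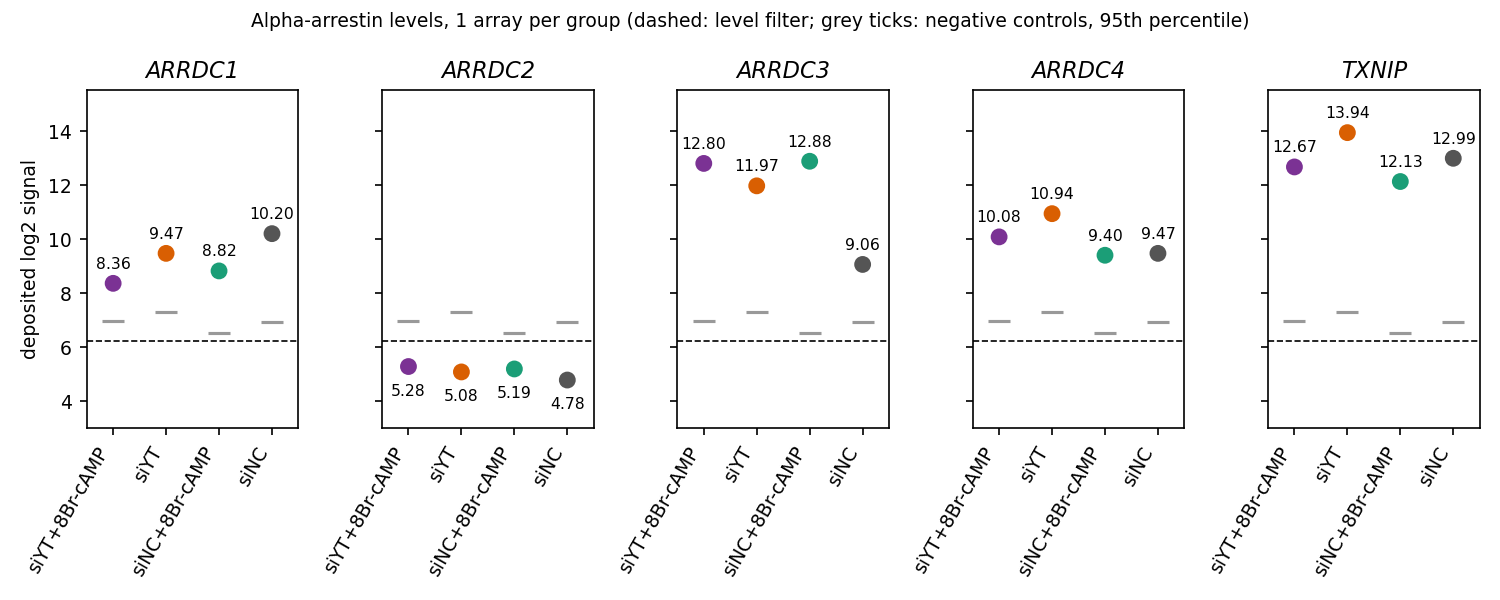
Deposited log2 signal of each alpha-arrestin on the 4 arrays, 1 point per array and no error bars because each group is 1 array; the dashed line is the level filter of 6.22 and grey ticks are the 95th percentile of the negative control probe sets. ARRDC3 is lowest in siNC at 9.06, TXNIP and ARRDC4 are highest in siYT, ARRDC1 is highest in siNC, and ARRDC2 lies under the filter on every array.

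With 8Br-cAMP, ARRDC3 differed by 0.83, or 1.78-fold, after siYT and by 3.83, or 14.2-fold, after siNC. The second was the difference ranked 28 from the highest among all 17687 genes. For the siRNA, the difference was -0.08 with 8Br-cAMP and 2.92, or 7.55-fold, without it. Either treatment alone thus came with a higher ARRDC3 level, and both together with 3.75 more than siNC, 0.08 less than 8Br-cAMP alone. Taking the siRNA difference without 8Br-cAMP from the one with it gave -2.99, ranked 20 from the lowest of all genes. The comparisons without 8Br-cAMP and after siNC share the siNC array, so 1 low value there enters both large differences and the difference of differences.

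ARRDC1 went the other way with 8Br-cAMP and was called lower after both siRNAs, as were 1.22% of all genes. It was at 8.36 in siYT+8Br-cAMP and 9.47 in siYT, against 8.82 in siNC+8Br-cAMP and 10.20 in siNC. ARRDC1 recruits the ESCRT protein TSG101 to the plasma membrane and drives the budding of small vesicles there. Both arrays with 8Br-cAMP lay under both arrays without it. The 8Br-cAMP difference was -1.11, 2.16-fold lower, after siYT and -1.38, 2.61-fold lower, after siNC. YAP/TAZ siRNA differences were smaller and not called, -0.46 with and -0.74 without 8Br-cAMP, and the difference of differences was 0.27. With both treatments ARRDC1 was 3.60-fold lower than in siNC. The antisense transcript ARRDC1-AS1, which has a probe set of its own, was at 8.40 in siYT+8Br-cAMP and 7.95 in siYT, against 8.09 in siNC+8Br-cAMP and 7.65 in siNC, so its differences had the opposite sign in all 4 comparisons and none was called.

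TXNIP and its close relative ARRDC4 had differences of the same sign in the 4 simple comparisons, positive for siYT and negative for 8Br-cAMP, but no comparison called both genes, and the 8Br-cAMP difference of ARRDC4 after siNC, -0.07, was close to 0. TXNIP was at 12.67 in siYT+8Br-cAMP and 13.94 in siYT, against 12.13 in siNC+8Br-cAMP and 12.99 in siNC. ARRDC4, which like TXNIP lowers glucose uptake, was at 10.08 in siYT+8Br-cAMP and 10.94 in siYT, against 9.40 in siNC+8Br-cAMP and 9.47 in siNC. Both genes were highest in siYT and lowest in siNC+8Br-cAMP.

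The siRNA difference of ARRDC4 was 0.68 with 8Br-cAMP and 1.48, or 2.79-fold, without it, and the difference without it was called. TXNIP differed by 0.54 with and 0.95 without 8Br-cAMP, neither called; the difference without it was 1.94-fold, just under the threshold. The 8Br-cAMP differences were larger for TXNIP than for ARRDC4. TXNIP was lower by 1.27, or 2.41-fold, after siYT, which was called, and by 0.85 after siNC, which was not. ARRDC4 was lower by 0.87 after siYT and differed by -0.07 after siNC, neither called. With both treatments against siNC, TXNIP differed by -0.31 and ARRDC4 by 0.61. Taken between the single treatments, siYT minus siNC+8Br-cAMP, TXNIP differed by 1.81 and ARRDC4 by 1.54, the widest gap between any 2 arrays for either gene.

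ARRDC2, a less studied adaptor, was under the level filter on all 4 arrays, at 5.28 in siYT+8Br-cAMP and 5.08 in siYT, against 5.19 in siNC+8Br-cAMP and 4.78 in siNC. Its 4 differences lay between 0.09 and 0.41 and could not be called at such a level. ARRDC5, the remaining human alpha-arrestin, was under the filter as well, at 3.68 in siYT+8Br-cAMP and 3.55 in siYT, against 4.02 in siNC+8Br-cAMP and 4.22 in siNC. The other 4 genes lay above both the filter and the 95th percentile of the negative controls, 6.53 to 7.29, on every array.

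Across the 5 genes, siYT was set against siNC first. With 8Br-cAMP 0 were called in either direction, where 5.52% of all genes were called higher and 5.94% lower. Without it ARRDC3 and ARRDC4 were called higher and 0 lower, where the shares over all genes were 7.6% and 7.32%. For 8Br-cAMP after siYT, ARRDC1 and TXNIP were called lower and 0 higher, against shares of 4.15% lower and 4.06% higher. After siNC, ARRDC3 was called higher and ARRDC1 lower, against 4.32% and 3.74%. ARRDC3 alone was called by the difference of differences, as lower, where 4.82% of all genes were lower and 3.57% higher. Since the genes were chosen with these differences known, nothing is read from the counts. The median over the 5 genes was 0.09 with and 0.95 without 8Br-cAMP for the siRNA, and -0.87 after siYT and -0.07 after siNC for 8Br-cAMP. Medians over all genes lay between -0.03 and 0.06.

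**Figure D2:**
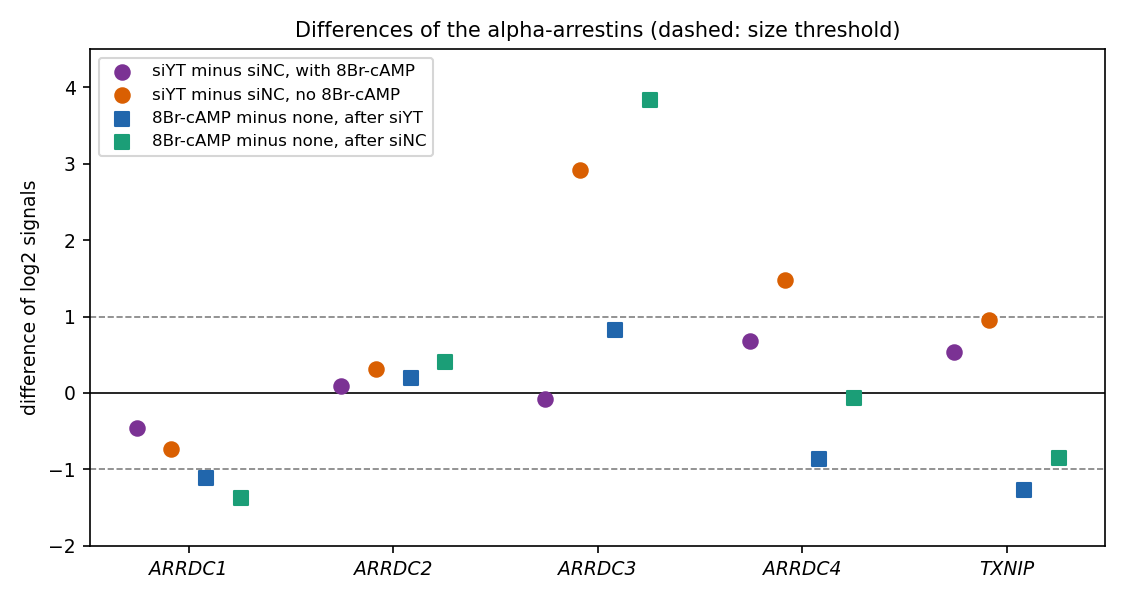
Log2 differences of the 5 genes in the 4 simple comparisons, 1 point per pair of arrays; circles are siYT minus siNC, squares are 8Br-cAMP minus none, and dashed lines mark a difference of 1 either way. ARRDC3 has the widest spread, between -0.08 and 3.83. The squares of ARRDC1, TXNIP and ARRDC4 lie below 0 after both siRNAs, that of ARRDC4 after siNC only just, at -0.07.

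**Figure D3:**
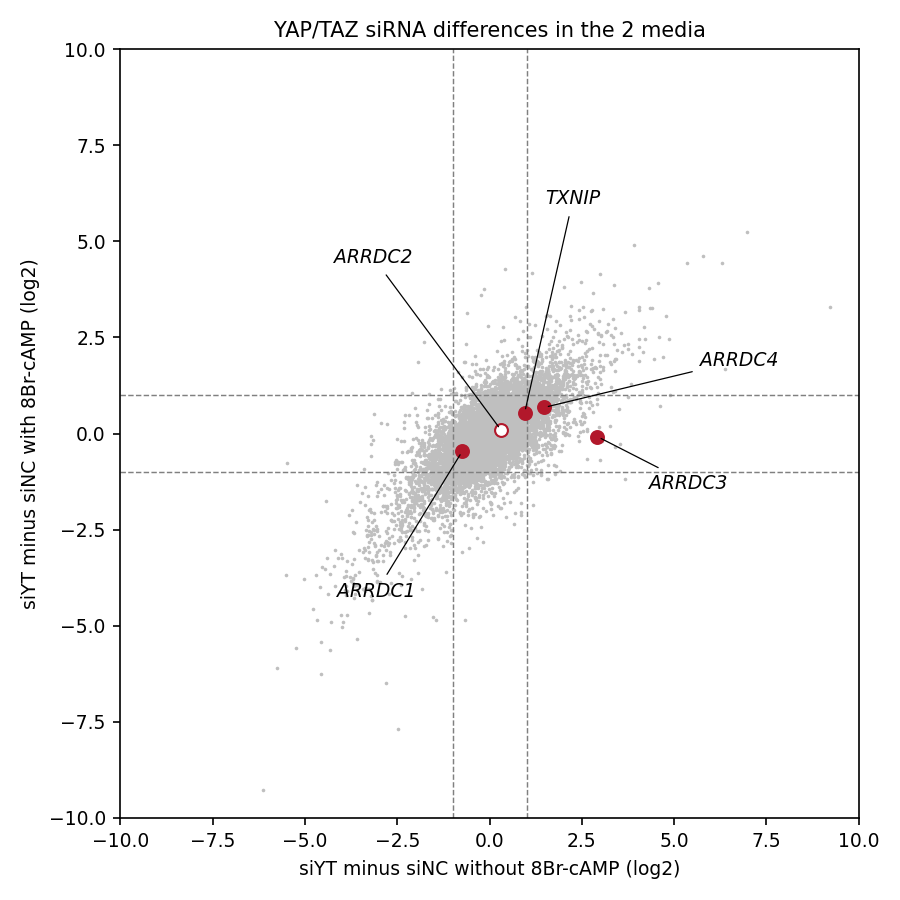
The siRNA difference with 8Br-cAMP (vertical) against that without it (horizontal), both log2, which share no array; grey points are genes whose highest value reached 6.22, red points are alpha-arrestins and the open point is ARRDC2, under the filter. ARRDC3 lies at 2.92 across and -0.08 up, apart from the diagonal cloud, while TXNIP and ARRDC4 lie above 0 on both axes.

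The starts of these genes were examined for letters bound by factors of the pathways involved, in the 250 bases before each start, as given by RefSeq for build GRCh38.p14. All 5 genes matched, with 8 windows. Shown are the windows of TXNIP and ARRDC4, whose differences had the same sign in the 4 simple comparisons, and the ARRDC3 window that held the FOXO letters. Capitals mark the matches described below, other than CCAAT.
TXNIP, upstream start, chr1:145996580-145996829, minus strand: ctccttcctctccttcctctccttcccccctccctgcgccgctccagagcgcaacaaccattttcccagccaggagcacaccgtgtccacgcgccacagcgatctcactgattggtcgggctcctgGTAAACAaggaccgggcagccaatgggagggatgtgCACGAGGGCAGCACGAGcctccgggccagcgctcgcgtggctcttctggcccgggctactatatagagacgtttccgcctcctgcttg
ARRDC4, chr15:97960453-97960702, plus strand: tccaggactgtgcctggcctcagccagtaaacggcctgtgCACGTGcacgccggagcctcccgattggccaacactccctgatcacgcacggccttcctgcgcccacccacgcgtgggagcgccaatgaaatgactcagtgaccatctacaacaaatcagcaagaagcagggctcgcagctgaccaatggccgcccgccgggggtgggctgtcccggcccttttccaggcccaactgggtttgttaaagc
ARRDC3, downstream start, chr5:91380098-91380347, minus strand: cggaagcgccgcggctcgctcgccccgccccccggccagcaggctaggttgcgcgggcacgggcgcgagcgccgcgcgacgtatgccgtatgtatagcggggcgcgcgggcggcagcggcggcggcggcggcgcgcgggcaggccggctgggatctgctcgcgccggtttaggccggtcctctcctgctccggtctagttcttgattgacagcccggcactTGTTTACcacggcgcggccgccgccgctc

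The carbohydrate response element, which the MLX complexes bind, was searched as 2 copies of CACGNG, each on either strand, with 5 bases between them. TXNIP held it as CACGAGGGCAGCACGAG, beginning 88 bases before the upstream start, and 23 of 35116 windows of all genes (0.0655%) held such a pair. ARRDC4 held no such pair in its window but held the E-box CACGTG, which is itself a copy of CACGNG, 210 bases before its start; 6.34% of all windows hold that E-box. The letters GTAAACA, bound by FOXO factors, stood on the forward strand 124 bases before the upstream start of TXNIP and, on the reverse strand, began 29 bases before the downstream start of ARRDC3, where 2.98% of all windows hold them on either strand. The full cyclic AMP response element TGACGTCA was in 0 of the 8 windows and in 1.65% of all windows. Its shorter form TGACG, contained in the full one, was searched on both strands and was in 1 of the 8, at ARRDC2, and in 21.2% of all windows. For the TEAD factors, partners of YAP and TAZ, the letters GGAATG on either strand were in 0 of the 8 and in 11.9% of all windows. The CCAAT box, bound by NF-Y and searched on both strands, was in 5 of the 8 windows and in 32% of all windows; the 5 were the upstream windows of TXNIP and ARRDC3, those of ARRDC1 and ARRDC4, and 1 of ARRDC2. A match is no evidence of binding, and an absent one concerns these letters in these windows only.

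Among genes of the network that acts on TXNIP and ARRDC4, MLXIP and MLX were called higher after siYT without 8Br-cAMP, and MYC, which binds a similar DNA site, was called lower after siYT in both media. The list held 13 genes of the MYC, MAX and MLX network, of which 12 were measured and 9 reached the level filter on some array. MLXIP was at 8.08 in siYT+8Br-cAMP against 7.20 in siNC+8Br-cAMP, a difference of 0.87, and at 8.36 in siYT against 6.53 in siNC, a difference of 1.82. MLX differed by 0.95 with and 1.32 without 8Br-cAMP. Both were thus called in the medium without 8Br-cAMP only. Of the alpha-arrestins, ARRDC3 and ARRDC4 were called higher in that medium, and TXNIP, at 0.95, was not. A link between MLXIP or MLX and the alpha-arrestin levels was not tested. MLXIPL, which encodes the related ChREBP, stayed under the filter on all 4 arrays, with 5.17 in siYT as its highest value.

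MYC was at 7.93 in siYT+8Br-cAMP and 8.91 in siYT, against 10.16 in siNC+8Br-cAMP and 11.59 in siNC. It was lower after siYT by 2.24 with and 2.68 without 8Br-cAMP, and lower with 8Br-cAMP by 0.98 after siYT, not called, and by 1.43 after siNC. MXI1, a MAX partner that opposes MYC, was at 11.40 in siYT+8Br-cAMP and 12.50 in siYT, against 11.29 in siNC+8Br-cAMP and 10.43 in siNC. It was highest in siYT like TXNIP and ARRDC4, but lowest in siNC, while those genes were lowest in siNC+8Br-cAMP. With 8Br-cAMP after siNC, MXI1 differed by 0.86 and TXNIP by -0.85. In counts, the siRNA comparison called 0 of the 12 higher and 1 lower with 8Br-cAMP, and 3 higher and 1 lower without it, with medians of -0.09 and 0.47; over all genes 5.52% were called higher and 5.94% lower with it, and 7.6% and 7.32% without it. The 8Br-cAMP comparison called 0 higher and 3 lower after siYT, with a median of -0.50, and 0 higher and 1 lower after siNC, with a median of -0.08, where 4.15% and 3.74% of all genes were called lower after siYT and siNC.

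**Figure D4:**
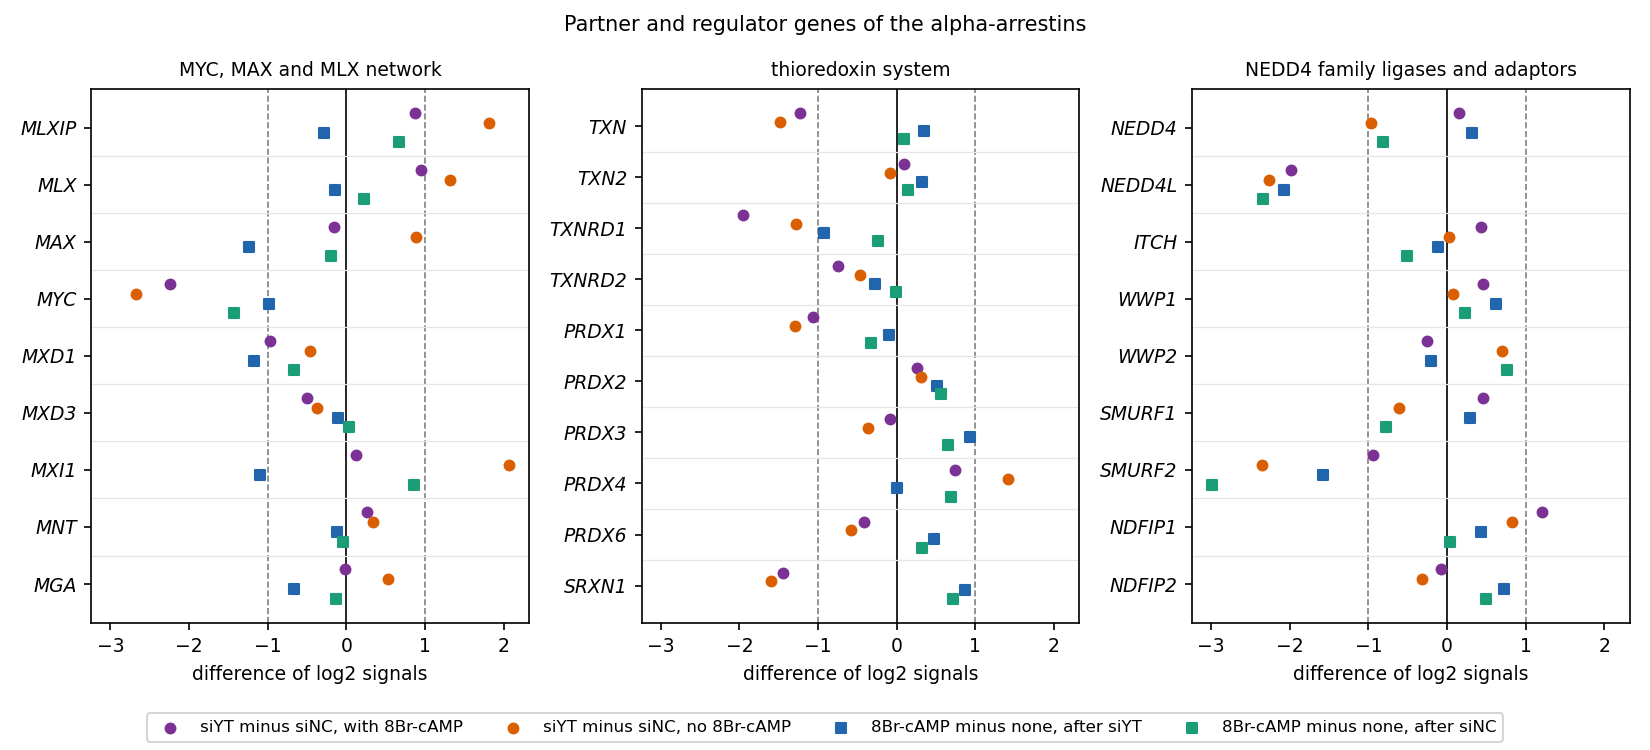
Log2 differences in the 4 simple comparisons for genes of 3 lists whose highest value reached 6.22, 1 point per pair of arrays; circles are siYT minus siNC, squares are 8Br-cAMP minus none, and dashed lines mark a difference of 1 either way. MYC, TXN, TXNRD1, PRDX1, SRXN1 and NEDD4L have both circles below -1, and MLXIP and MLX have both circles above 0.

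In the thioredoxin system, the target of TXNIP, 4 of 11 measured genes were called lower after siYT in both media, as were 3.63% of all genes. TXN, thioredoxin itself, was at 15.66 in siYT+8Br-cAMP against 16.89 in siNC+8Br-cAMP and at 15.32 in siYT against 16.81 in siNC, differences of -1.23 and -1.49. TXNRD1, the reductase that recharges it, differed by -1.96 with and -1.28 without 8Br-cAMP. PRDX1, a peroxidase that draws on thioredoxin, differed by -1.06 and -1.29, and SRXN1, which repairs such peroxidases, by -1.45 and -1.60, in the same order. PRDX4, the peroxidase of the endoplasmic reticulum, was called higher without 8Br-cAMP, by 1.42, and differed by 0.74 with it. The list medians were -0.42 with and -0.47 without 8Br-cAMP. For 8Br-cAMP itself 0 of the 11 were called after either siRNA. Of all genes, 4.06% were called higher and 4.15% lower after siYT, and 4.32% and 3.74% after siNC. With 11 genes at such shares, nothing is read from the 0. TXNIP was called lower with 8Br-cAMP after siYT.

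Glucose transporters, which TXNIP and ARRDC4 help to take off the cell surface, had no shared direction. SLC2A1, which encodes GLUT1, was at 8.21 in siYT+8Br-cAMP and 10.47 in siYT, against 11.29 in siNC+8Br-cAMP and 11.22 in siNC, so the array with both treatments stood below the other 3. The siRNA difference of SLC2A1 was -3.08 with and -0.75 without 8Br-cAMP, and the 8Br-cAMP difference was -2.26 after siYT and 0.07 after siNC. SLC2A12, another glucose transporter, was called higher after siYT in both media, by 2.52 with and 1.04 without 8Br-cAMP, as were 3.25% of all genes. The list of glucose transport and uptake had 9 measured genes, among them the enzymes HK1, HK2 and PFKFB3, which are not transporters. With 8Br-cAMP the siRNA comparison called 1 of the 9 higher, SLC2A12, and 2 lower, SLC2A1 and SLC2A3. Without 8Br-cAMP it called 3 higher, SLC2A10 by 2.68, PFKFB3 by 2.12 and SLC2A12, and 0 lower. The medians were 0.28 with and 0.33 without 8Br-cAMP. Shares over all genes were 5.52% higher and 5.94% lower with 8Br-cAMP, and 7.6% higher and 7.32% lower without it. For 8Br-cAMP the calls were 1 higher and 2 lower after siYT and 2 higher and 0 lower after siNC, with medians of -0.01 and 0.37, against 4.06% higher and 4.15% lower of all genes after siYT and 4.32% and 3.74% after siNC. The difference of differences called 1 higher and 4 lower, where 3.57% of all genes were called higher and 4.82% lower. The 4 were SLC2A1, SLC2A3, SLC2A10 and PFKFB3.

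Of the ligases that alpha-arrestins recruit, NEDD4L and SMURF2 differed most. NEDD4L, which removes ion channels from membranes, was at 7.69 in siYT+8Br-cAMP and 9.77 in siYT, against 9.68 in siNC+8Br-cAMP and 12.02 in siNC. It was called lower in all 4 simple comparisons, with differences between -2.34 and -1.99. SMURF2, which acts on TGF-beta signalling, was at 11.50 in siYT+8Br-cAMP and 13.07 in siYT, against 12.43 in siNC+8Br-cAMP and 15.42 in siNC, highest in siNC, where ARRDC3 was lowest. ITCH differed by between -0.51 and 0.43 and was not called, and NEDD4 by between -0.97 and 0.32, not called in the simple comparisons. The difference of differences called NEDD4, SMURF1 and SMURF2 higher and 0 of the list lower, where 3.57% and 4.82% of all genes were called. The 11 measured genes of this list gave 1 higher and 1 lower for the siRNA with 8Br-cAMP and 0 and 2 without it, and for 8Br-cAMP 0 higher and 2 lower after each siRNA. Of all genes, 5.52% were called higher and 5.94% lower for the siRNA with 8Br-cAMP, 7.6% and 7.32% without it, and 4.15% and 3.74% lower for 8Br-cAMP after siYT and siNC. Their medians were 0.15 and -0.32 for the siRNA with and without 8Br-cAMP, and 0.29 and -0.40 for 8Br-cAMP after siYT and siNC.

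Among 11 measured ESCRT and vesicle budding genes, the machinery that ARRDC1 uses, the siRNA comparison called 2 higher and 0 lower with 8Br-cAMP and 0 higher and 1 lower without it, and 8Br-cAMP called 1 higher after siYT and 0 after siNC. The list medians lay between 0.17 and 0.32. STAM2, an early ESCRT component, was the 1 higher with 8Br-cAMP after siYT, by 1.13, and TSG101 differed by between -0.06 and 0.58. Of 8 measured beta-arrestins and receptor kinases, GRK5, a kinase that marks active receptors for arrestins, was called higher by 1.07 for the siRNA with 8Br-cAMP and by 1.43 for 8Br-cAMP after siYT, and 0 others were called in the simple comparisons; the medians lay between -0.09 and 0.12. Among 8 measured proteins reported as alpha-arrestin cargo, 3 reached the level filter, and in the simple comparisons SLC2A1, held by both lists, was called lower as given above and EGFR, the EGF receptor, was lower by 1.34 with 8Br-cAMP after siNC; the medians lay between -0.45 and -0.04. The list of the NLRP3 inflammasome, which TXNIP is reported to bind, held 5 genes, and 2 of them, IL18 and IL1B, encode its cytokine products. IL18 was called lower after siYT by 2.80 with and 2.45 without 8Br-cAMP, and IL1B by 1.35 with 8Br-cAMP. PYCARD and CASP1 were not called in the simple comparisons, and NLRP3 was under the filter on all 4 arrays. The siRNA called 2 of these 5 lower with and 1 without 8Br-cAMP, and 8Br-cAMP called 1 lower after siYT and 0 after siNC, with 0 higher and medians of -1.35, -0.28, -0.69 and 0.16. The shares of all genes called lower were 5.94%, 7.32%, 4.15% and 3.74% in the same order, and those called higher, which bear on the ESCRT genes and receptor kinases too, were 5.52%, 7.6%, 4.06% and 4.32%.

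Genes with the most similar pattern were found by the Euclidean distance between the 4 log2 values, each gene's own mean taken off. The genes compared reached 6.22 on some array and had a range of at least 1 over the arrays, 5160 of them for each alpha-arrestin. For ARRDC3 the 3 nearest were SHC4 at 0.556, PDK2 at 0.782 and CD200 at 0.946. SHC4 was at 6.87 in siYT+8Br-cAMP and 6.71 in siYT, against 7.08 in siNC+8Br-cAMP and 3.66 in siNC. Only its value in siNC+8Br-cAMP lay above the 95th percentile of the negative controls on the same array. PDK2 was at 12.02 in siYT+8Br-cAMP and 11.53 in siYT, against 11.74 in siNC+8Br-cAMP and 8.97 in siNC. The nearest to ARRDC1 were RIN2 at 0.0894, ARHGDIB at 0.101 and DUSP14 at 0.106. LLGL1 at 0.0873, DGAT2 at 0.0924 and RNF130 at 0.101 were nearest to ARRDC4, and ASIC3 at 0.0948, GRB10 at 0.166 and ARHGAP42 at 0.183 to TXNIP. ARRDC4 itself lay 0.707 from TXNIP, in place 282 among the 5160, and TXNIP was in place 493 among those nearest to ARRDC4; this was the smallest distance between any 2 of the 4 alpha-arrestins compared. ARRDC1 and ARRDC3 lay farthest apart, at 4.42. With 4 arrays many genes have near-identical patterns, and these distances carry no error.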

How the data were processed

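RNA of KGN cells was measured on 4 Clariom S Human arrays, 1 per group, as the labels assign them. Per the labels, the authors derived the deposited log2 signals by RMA in Affymetrix Expression Console; versions and annotation build are not given in the sources used here. Deposited values reach 19.36, above the range of common array scanners, so a further rescaling is possible and a fold is then no longer a ratio of probe brightness. Probe sets naming exactly 1 gene in GEO's platform annotation (17709 of 24351) were averaged per gene, giving 17687 genes. Differences between arrays were taken in Python 3.11.15 with pandas 2.3.3 and called by the size and level rule stated above. The calling was run on simulated data with planted differences, which checks the code and does not measure the error of these arrays. With 1 array per group no p-value was computed, and the number of arrays limits the precision. The 612 negative control probe sets gave the background level. Alternatives were median centring, quantile normalization, cyclic loess (limma 3.58.1, R 4.3.3), an offset of 32 on the linear scale, other thresholds and the highest probe set per gene. The members, lists and rules were chosen with earlier results of these data known. Named genes are the 5 members, list genes called in both siRNA or both 8Br-cAMP comparisons or else the largest of a list, partners of the members, and the 3 nearest patterns; those of the siRNA, 8Br-cAMP and cell type checks are mostly given as counts. MXI1, PRDX4, TSG101, EGFR, NLRP3, MLXIPL, ARRDC1-AS1, KRT8, SMURF1, FOXL2, INHA and AMHR2 were named after their values were seen. So were NR5A1, HK1, HK2, PFKFB3, SLC2A3, SLC2A10, IL1B, PYCARD and CASP1. Promoter sequences are from RefSeq.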

Additional observations from a re-analysis of the deposited data

Results flagged for a closer look

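ARRDC3 was the 1 alpha-arrestin whose siRNA difference had opposite signs in the 2 media, -0.08 with 8Br-cAMP and 2.92 without it. The first is close to 0, each sign rests on 1 pair of arrays, and the difference between the media was not tested. Genes with a small difference in 1 medium can take either sign there.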

How the results depend on the processing

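With other scalings (median centring, quantile normalization, cyclic loess), an offset of 32 or the highest probe set, all 125 recomputed differences of the 5 genes kept their call. No called difference changed sign. The 5 genes have 1 probe set each, so the highest probe set returned the main values and that part of the 125 could not change. ARRDC3 ranged between -0.13 and -0.03 for the siRNA with 8Br-cAMP and between 2.84 and 2.96 without it. The filter at the negative controls, 6.95, left the members' calls as they were. The size threshold decided the counts. At a 1.5-fold difference, 1 member was called for the siRNA with 8Br-cAMP (ARRDC4) and 4 without it, 4 for 8Br-cAMP after siYT and 3 after siNC (ARRDC1, ARRDC3 and TXNIP), and 2 for the difference of differences; over all genes the counts were 4124 for the siRNA with and 4678 without 8Br-cAMP, 3418 for 8Br-cAMP after siYT and 3516 after siNC, and 3726 for the difference of differences. At a log2 difference of 1.5, 1 member (ARRDC3) was called for the siRNA without 8Br-cAMP, 0 for 8Br-cAMP after siYT and 1 (ARRDC3) after siNC; over all genes 889 with and 1293 without 8Br-cAMP for the siRNA, 533 after siYT and 477 after siNC for 8Br-cAMP, and 467 for the difference of differences. With the threshold of 1, counts over all genes were 2028, 2639, 1452, 1426 and 1484 in the same order. Without a level filter the difference of differences called 2756. By median centring 53.6% of its calls were higher, against 42.5% as deposited, and the median siRNA difference of all genes with 8Br-cAMP became 0.11, against 0.06. No paired analysis was possible because each group holds 1 array. No replicate could be left out for the same reason. Values under 6.22, as for ARRDC2 and ARRDC5, depend on the background.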
